A study of Cavia porcellus with 10 samples.

Results

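The genes of mucus secreting epithelium *AGR2*, *SPDEF*, *FCGBP*, *CLCA1*, *ERN2*, *SCGB3A1*, *BPIFB1*, *VSIG2*, *KIAA1324* and *LRRC26*, 10 in all, were followed gene by gene in the cervix of the guinea pig before and during pregnancy. They were found by gene name, and each of the 10 names matched 1 of the 25028 Ensembl genes in the deposited table, of which 20251 have a gene name. The 10 genes were selected on their measured TPM, because it was higher in the pregnant animals than in the non-pregnant ones, so the comparisons with the non-pregnant animals are given below as a description, with no test. All 10 passed the filter used for testing, a stage mean of 3 TPM or more in any of the 3 stages, but 6 of them passed it through the pregnant stages alone. TPM, the unit of abundance, is a share of all transcripts of a library after correction for gene length, so levels of different genes can be compared with each other.

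Poly-A RNA from the cervix of 10 female guinea pigs of the Hartley strain was sequenced, 1 library for each animal. The 3 NP animals were not pregnant and were taken as they entered estrus. The 3 MT animals were at mid-pregnancy (43.6 ± 0.5 days) and the 4 LT animals were in late pregnancy but not in labor (65.2 ± 1.2 days). The sources used here name no treatment, and give no age for the animals. The pregnant females had uncertain mating dates, so gestation was estimated from the size of the fetuses at harvest, and the tissue was taken from the end of the cervix next to the vagina, away from the uterine muscle. Between 18730665 and 27881572 reads per animal fell on genes.

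Mucus covering epithelia is built from gel-forming mucins, very large glycoproteins that are folded and linked in the endoplasmic reticulum, decorated with O-linked sugars in the Golgi and packed into secretory granules. Cells that do this, such as goblet cells of gut and airway and the columnar cells lining the endocervical canal, share a transcription program and release other proteins with the mucin. In the pregnant cervix, mucus forms the plug that closes the canal.

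The name goblet cell is best known from the intestine, where *SPDEF*, *FCGBP*, *CLCA1* and *AGR2* are expressed too, but a pair of its best known products was close to 0 here. The intestinal gel-forming mucin *MUC2* had means of 0.156 TPM in NP, 0.932 in MT and 0.276 in LT, and the trefoil peptide *TFF3* had means of 0.737, 1.44 and 1.29 TPM. The gel-forming mucin that did reach high levels was *MUC5B*, the chief one of the endocervix, with 75.8 ± 57.5 TPM (SD, n = 3) in NP, 729.6 ± 295.7 (n = 3) in MT and 340 ± 61.8 (n = 4) in LT. *MUC5AC* stayed below 5 TPM in all 10 animals, with means of 0.0672 TPM in NP, 0.246 in MT and 2.69 in LT. Every LT animal was above every NP and MT animal for it, but it was below the filter and was not tested. *ATOH1* and *RETNLB*, also used as goblet cell markers, have no row in the table. The 10 genes are called mucus secretory genes in what follows.

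One NP animal stood apart from the other two in gland genes outside the 10. In NP replicate 1 the forkhead factor *FOXA2* was at 0.0650 TPM, against 11.7 and 6.40 in replicates 2 and 3. The polymeric immunoglobulin receptor *PIGR* was at 2.17 TPM there, against 97.5 and 70.2. The summed TPM of the smooth muscle markers was 31860 in that animal, against 11400 and 8962, and that of the squamous epithelium markers was 3461, against 1118 and 1064. The columnar epithelium markers also had their highest NP sum in that animal, 1870 TPM against 1377 and 1287. Ratios of the 10 genes to NP are therefore given with and without this animal.

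The 10 genes together made up 0.0142% to 0.0321% of all TPM in the NP animals, 0.509% to 1.28% in the MT animals and 1.08% to 1.52% in the LT animals. In TPM, the sums were 142.2, 321.3 and 215.1 in NP, 12810, 5090 and 8976 in MT, and 10800, 13540, 13710 and 15180 in LT. Every MT and LT animal was above every NP animal in this sum, while MT replicate 1 was above LT replicate 1. The sum rests mostly on *AGR2* and *SCGB3A1*, so the genes are described 1 by 1 below, in the order of their roles.

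**Figure D1:**
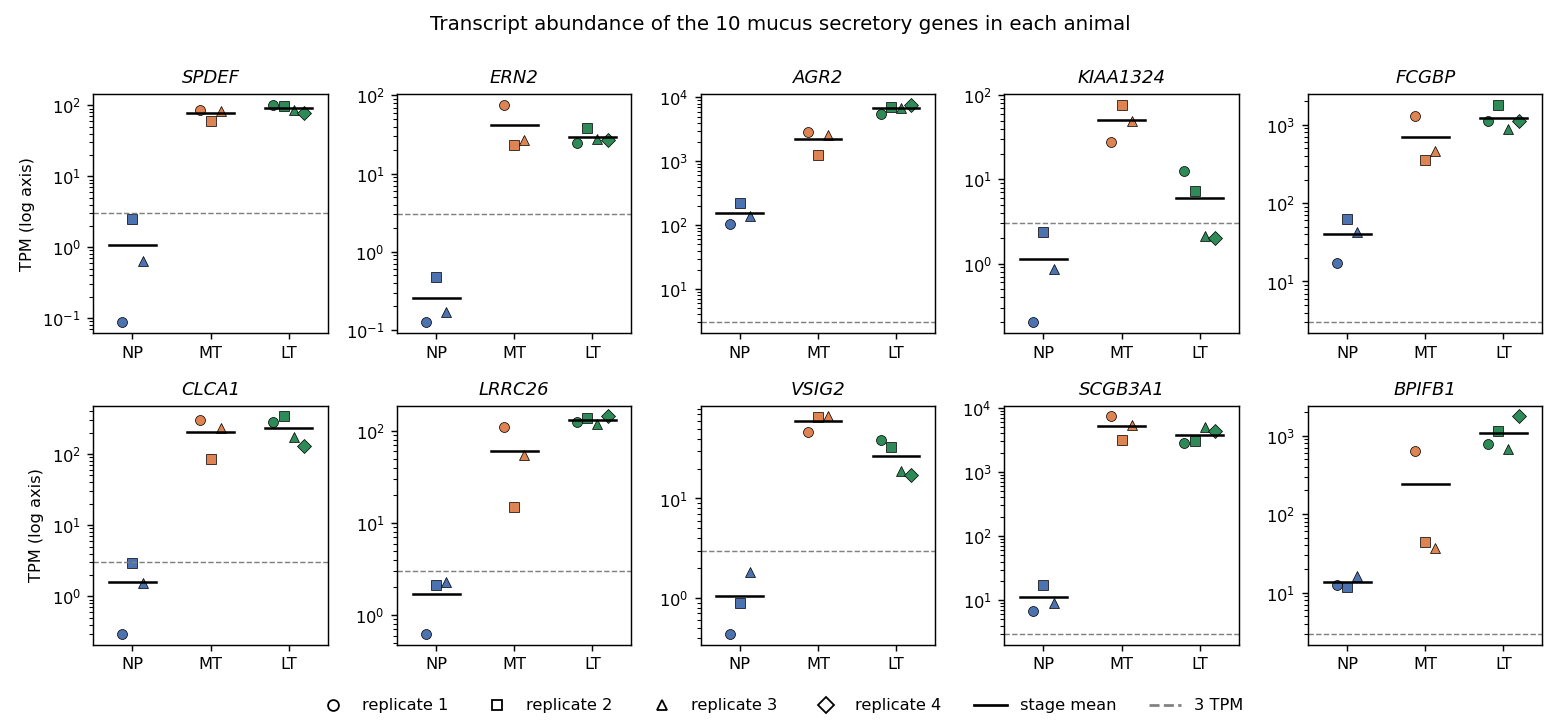
Transcript abundance of the 10 mucus secretory genes in each animal, in TPM on a logarithmic axis that differs between panels. Each symbol is 1 animal (NP 3, MT 3, LT 4), its shape gives the replicate number, the black bar is the stage mean and the dashed line is the operational threshold of 3 TPM. Every MT animal lies above every NP animal in all 10 panels, and KIAA1324 is the gene in which LT animals, replicates 3 and 4 (2.11 and 2.02 TPM), lie in the range of the NP animals (0.200 to 2.36 TPM).

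*SPDEF* encodes an ETS transcription factor that drives the formation of mucus cells. Its abundance was 0.0871, 2.50 and 0.635 TPM in the 3 NP animals, resting on 2 to 42 reads, then 85.5, 60.8 and 84.2 TPM in MT and 101, 99.5, 84.9 and 77.4 TPM in LT. The NP animals were all under the operational threshold of 3 TPM and the pregnant animals all far above it, with MT and LT in the same range. The ratio of the means of MT to NP was 71.6, and 49.1 without NP replicate 1. Without NP replicate 2, the highest NP animal, it was 212.8.

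*ERN2* encodes IRE1 beta, a sensor of misfolded protein in the endoplasmic reticulum whose expression is limited to mucus producing epithelia. By its mean it was the lowest of the 10 in NP, at 0.125, 0.470 and 0.171 TPM (8 to 22 reads), and stood at 75.0, 23.4 and 26.8 TPM in MT and 24.5, 38.4, 28.0 and 27.0 TPM in LT. MT replicate 1 was the highest of all 10 animals, and the other MT animals lay within or just under the range of the LT animals. The ratio of MT to NP means was 163.5, and it was 130.3 without NP replicate 1, 281.9 without NP replicate 2 and 98.3 without MT replicate 1.

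*AGR2*, a disulfide isomerase of the endoplasmic reticulum that mucins need to fold, was the most abundant of the 10 in NP and in LT. It was at 104, 219 and 139 TPM in NP, 2904, 1250 and 2612 TPM in MT, and 5547, 6982, 6782 and 7559 TPM in LT. The 3 stages did not overlap, and by its mean the gene moved from rank 915 of 25028 in NP to rank 49 in MT and rank 13 in LT. The ratio to the NP mean was 14.7 in MT and 43.7 in LT, and 12.6 and 37.5 without NP replicate 1.

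*KIAA1324*, now also named ELAPOR1, encodes a membrane protein of the endosomes and lysosomes of secretory cells. It was at 0.200, 2.36 and 0.869 TPM in NP, 27.8, 76.1 and 49.8 TPM in MT, and 12.4, 7.34, 2.11 and 2.02 TPM in LT. The MT animals were above all others, and LT replicates 3 and 4 were below NP replicate 2. By mean its rank was 13491 in NP, 3165 in MT and 10331 in LT. The ratio to the NP mean was 44.8 in MT and 5.22 in LT. It was 31.7 and 3.70 without NP replicate 1, 95.8 and 11.2 without NP replicate 2, and 3.34 in LT without LT replicate 1.

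*FCGBP* encodes a large protein with mucin-like domains that is bound into the mucus gel. It was at 17.3, 62.2 and 43.1 TPM in NP, 1294, 354 and 457 TPM in MT, and 1114, 1780, 881 and 1123 TPM in LT. The pregnant stages overlapped because MT replicate 1 was above 3 of the 4 LT animals. The ratio of MT to NP means was 17.2, and it was 13.3 without NP replicate 1 and 9.93 without MT replicate 1.

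*CLCA1* encodes a secreted metalloprotease that cleaves mucus components. Its values were 0.300, 2.91 and 1.55 TPM in NP, 297, 85.4 and 230 TPM in MT, and 283, 338, 174 and 128 TPM in LT. NP was below the threshold in every animal, and MT and LT shared a range. The ratio to the NP mean was 128.5 in MT and 145.4 in LT. It was 91.4 and 103.4 without NP replicate 1, and 220.1 and 249.0 without NP replicate 2.

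*LRRC26* is the auxiliary subunit that lets the BK potassium channel open in secretory cells at rest. It was at 0.629, 2.15 and 2.29 TPM in NP, 111, 15.0 and 55.0 TPM in MT, and 126, 138, 121 and 145 TPM in LT. The LT animals were close to each other, with a coefficient of variation of 8.21%, while the MT animals were spread with 79.9%. All LT animals were above all MT animals, and the ratio to the NP mean was 35.7 in MT and 78.4 in LT. Without NP replicate 1 these ratios were 27.2 and 59.7, and without MT replicate 1 the ratio for MT was 20.7.

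*VSIG2* encodes a membrane protein with immunoglobulin domains. It was at 0.438, 0.897 and 1.81 TPM in NP, 47.1, 65.4 and 66.9 TPM in MT, and 38.7, 33.3, 19.0 and 17.1 TPM in LT. The 3 stages did not overlap, with LT between NP and MT. The ratio to the NP mean was 57.0 in MT and 25.8 in LT. It was 44.2 and 19.9 without NP replicate 1, and 89.6 and 40.45 without NP replicate 3.

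*SCGB3A1*, a small secretoglobin released at mucosal surfaces, had the greatest ratio to NP of the 10 genes in both pregnant stages. It was at 6.81, 17.3 and 8.96 TPM in NP, 7333, 3116 and 5358 TPM in MT, and 2784, 2980, 4948 and 4353 TPM in LT. Its mean in MT was 478.4 times that in NP (401.7 without NP replicate 1), and with 5269 ± 2110 TPM (SD, n = 3) it held rank 18 of all genes at mid-pregnancy. The LT animals overlapped with the MT animals, and the LT mean was 341.9 times the NP mean (287.1 without NP replicate 1).

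*BPIFB1* encodes a secreted lipid binding protein of mucosal surfaces. It was at 12.6, 11.8 and 16.4 TPM in NP, 636, 43.7 and 36.7 TPM in MT, and 771, 1143, 675 and 1752 TPM in LT. Mid-pregnancy was split, since MT replicate 1 was close to the LT animals and the other MT animals were closer to NP. The ratio of MT to NP means, 17.5, rests on that animal and was 2.95 without it, while the ratio of LT to NP means was 79.6. Without NP replicate 1 these ratios were 16.9 and 76.8.

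Counted over the genes, every MT animal was above every NP animal for all 10, where 11.4% of all 12645 tested genes showed such a separation. Every LT animal was above every NP animal for 9 of the 10, where 11.8% of all tested genes did. These counts follow from how the genes were chosen and are given as a description. By the operational threshold, *AGR2*, *FCGBP*, *SCGB3A1* and *BPIFB1* were above 3 TPM in every NP animal, and the other 6 genes were below it in every NP animal and above it in every MT animal. In bulk tissue, fewer cells of a type and less RNA per cell cannot be told apart.

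Between mid- and late pregnancy the 10 genes parted. *AGR2* and *BPIFB1* rose, *KIAA1324* and *VSIG2* fell, and the other 6 did not pass the test. The choice of the genes did not rest on this contrast, but it shares the MT and LT animals with it. The test was limma on log2(TPM + 1) in 1 fit to all 10 animals, with P-values adjusted over all 12645 tested genes, and changes are on that scale. The 4 genes called compare with 29.4% of all tested genes called from MT to LT, of which 6.73% of the tested genes were called higher and 22.7% lower. The median change of all tested genes was -0.16, and a scaling of TPM by the median ratio brought it to 0.01.

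*AGR2* rose by 1.66 ± 0.31 (SE, limma adjusted P = 0.00559), or 1.82 relative to the median gene, and no LT animal was as low as any MT animal. *KIAA1324* fell by 3.09 ± 0.58 (adjusted P = 0.00558), with all 4 LT animals below all 3 MT animals. Both passed in all 18 alternative settings, with adjusted P-values up to 0.0422 for *AGR2* and 0.0289 for *KIAA1324*. The gene of mucin folding and the endosomal membrane protein gene thus moved in opposite directions between the same stages.

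*BPIFB1* rose by 3.30 ± 0.83 (limma adjusted P = 0.0168, alternatives 0.00108 to 0.0846). The change was 4.62 without MT replicate 1 and 2.58 without MT replicate 3. The rise did not pass without MT replicate 2 (0.0741), without MT replicate 3 (0.0609) or with edgeR on the read counts (0.0846). *VSIG2* fell by 1.18 ± 0.31 (adjusted P = 0.0202, alternatives 0.0095 to 0.0892), and lost its call without MT replicate 2 (0.0758), MT replicate 3 (0.0660), LT replicate 3 (0.0555) or LT replicate 4 (0.0501), with a pseudocount of 0.1 TPM (0.0526) and with edgeR (0.0515). For both genes the animals of the 2 stages did not overlap.

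*LRRC26* had a change of 1.52 ± 0.53 (limma adjusted P = 0.0552) and did not pass, although its LT animals were all above its MT animals. It passed on the square-root scale (0.0280), with median-ratio scaling (0.0386), with DESeq2 (0.0402), without NP replicate 1 (0.0440) and without MT replicate 1 (0.0130). The change was 2.15 without MT replicate 1 and 0.75 without MT replicate 2 (adjusted P = 0.147). *FCGBP* had a change of 0.99 ± 0.50 (adjusted P = 0.155), and passed without MT replicate 1 (0.0367), the MT animal in the range of LT. With that animal left out, 6 of the 10 genes were called, and without MT replicate 2 or MT replicate 3 only *AGR2* and *KIAA1324* were.

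For the remaining 4 genes the change was small beside its error. It was 0.24 ± 0.32 for *SPDEF* (limma adjusted P = 0.596), 0.25 ± 0.51 for *CLCA1* (0.732), -0.31 ± 0.35 for *ERN2* (0.525) and -0.44 ± 0.36 for *SCGB3A1* (0.367). The sign for *CLCA1* (-0.28 to 0.61) and for *ERN2* (-0.61 to 0.21) turned when single animals were left out. A two-sided exact permutation test on square-root TPM gave 0.0286, the smallest P-value that 3 against 4 animals allow, for *AGR2*, *BPIFB1*, *LRRC26*, *VSIG2* and *KIAA1324*, the 5 genes whose MT and LT animals did not overlap. Such separation was found in 46.3% of all tested genes, with LT above MT in 10.8% and below it in 35.5%. By the same exact test the other 5 genes had P-values from 0.2 to 0.714.

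**Figure D2:**
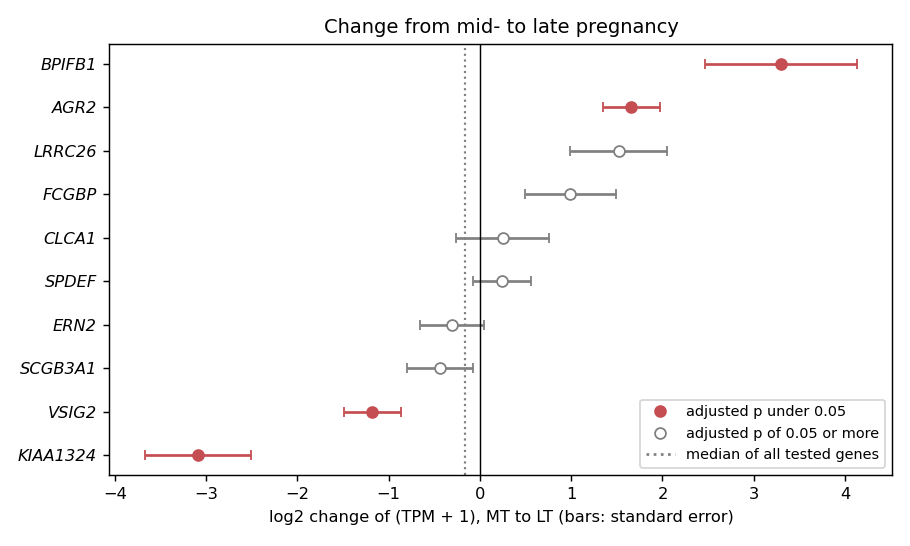
Change of the 10 genes from mid- (MT, n = 3) to late pregnancy (LT, n = 4) as the log2 change of (TPM + 1) with its standard error, sorted from the highest to the lowest. Filled red points have a limma adjusted P-value under 0.05 and the dotted line is the median of all tested genes (-0.16). BPIFB1 and AGR2 lie to the right, VSIG2 and KIAA1324 to the left.

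How far the genes moved together between animals of 1 stage was described by the deviation of each animal from its stage mean in log2(TPM + 1). Over the 45 pairs of genes and 10 animals the median Pearson r of these deviations was 0.50, with a range from -0.44 to 0.90. Over all pairs of tested genes the median was 0.13. The points are the same 10 libraries for every pair and share their RNA composition and their stage means, so no P-value is given.

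The strongest pairs were *AGR2* with *SCGB3A1* (r = 0.90), *ERN2* with *BPIFB1* (0.87) and *AGR2* with *LRRC26* (0.86). *KIAA1324* and *VSIG2* deviated together (0.80) but apart from the rest. When these 2 genes were set aside, a split made after the values were seen, the 28 pairs of the other 8 genes had a median r of 0.70 and none was below 0. The 16 pairs between *KIAA1324* or *VSIG2* and the other 8 genes had a median of -0.18, and 10 of them were below 0.

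Within NP and within MT, many of the genes ranked the animals alike. NP replicate 1 was the lowest NP animal for 9 of the 10 genes, all but *BPIFB1*, and NP replicate 2 was the highest for 7. MT replicate 1 was the highest MT animal for 8 genes and the lowest for the other two, *VSIG2* and *KIAA1324*. MT replicate 2 was the lowest for 7 genes and the highest for *KIAA1324*.

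Late pregnancy had no such common order. LT replicate 4 was the highest LT animal for *AGR2*, *BPIFB1* and *LRRC26*, and the lowest for *SPDEF*, *CLCA1*, *VSIG2* and *KIAA1324*. LT replicate 1 was the highest for *SPDEF*, *VSIG2* and *KIAA1324* and the lowest for *AGR2*, *ERN2* and *SCGB3A1*. LT replicate 2 was the highest for *FCGBP*, *CLCA1* and *ERN2*.

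**Figure D3:**
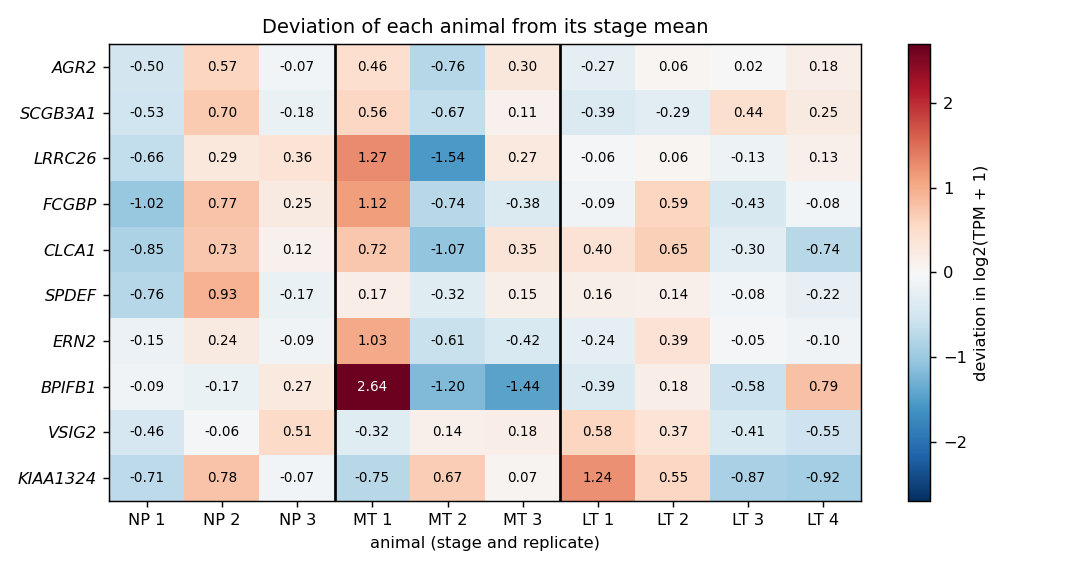
Deviation of each animal from the mean of its stage in log2(TPM + 1), for the 10 genes (vertical) and the 10 animals (horizontal, black lines part the stages). Red is above and blue below the stage mean. NP replicate 1 is below its stage mean for all 10 genes, from -1.02 to -0.09, and in MT replicate 1 the 8 upper genes are above theirs while VSIG2 (-0.32) and KIAA1324 (-0.75) are below.

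Among named genes outside the 10, those whose deviations were most like the mean deviation of the 10 included *UBAP2* (r = 0.985), *MRPL43* (0.979), *DGUOK* (0.972), *KIAA1217* (0.972), *DMRTA1* (0.966), *TRIM24* (0.964), *SRRT* (0.963), *ANAPC1* (0.962) and *MCCC1* (0.960), over 10 animals. Of the 10 genes themselves, *FCGBP* (0.97) and *CLCA1* (0.90) were closest to that mean, and *KIAA1324* (0.15) and *VSIG2* (0.18) farthest from it. Over all tested genes the median was 0.29 and the 99th percentile 0.90.

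The makeup of the tissue pieces was read from marker genes. Of the 13 markers of columnar epithelium, 10 have a row in the table and none of these was at 0 in every animal. Their summed TPM was 1287 to 1870 in NP, 2005 to 2292 in MT and 2189 to 2419 in LT. Of the 10, 2 were called higher and 2 lower from NP to MT, where 6.27% of all tested genes were called higher and 12.2% lower.

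Expressed as a percentage of this columnar sum, the mucus secretory genes had ratios of the MT to the NP mean from 9.78 for *AGR2* to 320 for *SCGB3A1*, and from 7.88 to 253 without NP replicate 1. The choice of the genes by their TPM fixes the direction of these ratios, since the columnar sum differed little between the stages beside them. *ERN2*, for example, was 0.0180% of the columnar sum in NP, 1.98% in MT (1.17% without MT replicate 1) and 1.26% in LT. From MT to LT, *AGR2* went from 62.4 to 139% of the columnar sum in MT to 253 to 319% in LT, without overlap. *KIAA1324* and *VSIG2* stayed lower in LT than in MT without overlap, whereas *BPIFB1* and *LRRC26* overlapped on this measure.

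Other cell types differed between animals too. The 10 squamous markers with a row summed to 1064 to 3461 TPM in NP, 197.3 to 1446 in MT and 1634 to 3280 in LT, and MT replicate 1, the animal highest for 8 of the genes, had the highest squamous sum of its stage. The 9 smooth muscle markers summed to 8962 to 31860, 13300 to 20020 and 19670 to 40390 TPM, and within LT they were lower in replicates 1 and 2 (19670 and 19720) than in replicates 3 and 4 (39010 and 40390), which were also the lowest LT animals for *VSIG2*, *KIAA1324*, *SPDEF* and *CLCA1*. The 14 ciliated cell markers summed to 44.0 to 181 TPM in NP, 110 to 145 in MT and 157 to 244 in LT, the 6 stroma markers to 2605 to 4429, 2296 to 3944 and 2742 to 3690, and the 15 leukocyte markers to 204 to 502, 237 to 277 and 247 to 371. The 7 endothelium markers summed to 166 to 222, 118 to 173 and 66.0 to 105 TPM. No marker was at 0 in every animal, and the part of these sums in the values of the mucus secretory genes was not tested.

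Around the 10 genes stands the rest of the pathway. The 6 lists used, none of which holds any of the 10, name 213 genes of mucus production, of which 167 have a row and 125 were tested. The lists were chosen with earlier results of these data known. Their shares and P-values below are therefore not independent of those results. From NP to MT, 34 of the 125 rose (27.2%, against 6.27% of all tested genes) and 8 fell (6.4%, against 12.2%). With median-ratio scaling these counts were 46 and 7, against 10.9% and 7.15% of all tested genes, with edgeR 46 and 9 (10.1% and 7.98%), and with DESeq2 58 and 12 (13.1% and 11.5%). From NP to LT, a comparison with the same NP animals, 56 rose (44.8%, against 11.2%) and 16 fell (12.8%, against 41.9%). The shares over all tested genes depended on the scaling here. With median-ratio scaling the counts were 71 and 11, against 26.3% and 23.4% of all tested genes, with edgeR 70 and 13 (23.6% and 25.8%), and with DESeq2 72 and 14 (26.2% and 27.5%). Between MT and LT, 18 rose (14.4%, against 6.73%) and 12 fell (9.6%, against 22.7%). With median-ratio scaling 28 rose and 8 fell, against 14.6% and 14.8% of all tested genes. With edgeR they were 26 and 8 (13.4% and 15.6%), and with DESeq2 36 and 9 (17.4% and 18.8%). Single animals moved these counts, so that 20 genes rose from NP to MT without MT replicate 3, 6 rose and 6 fell from MT to LT without MT replicate 2, 10 rose without LT replicate 2 and 20 fell without NP replicate 1. The genes called with all animals and again with each animal left out in turn were 19 higher and 6 lower from NP to MT and 6 higher and 6 lower from MT to LT.

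**Figure D4:**
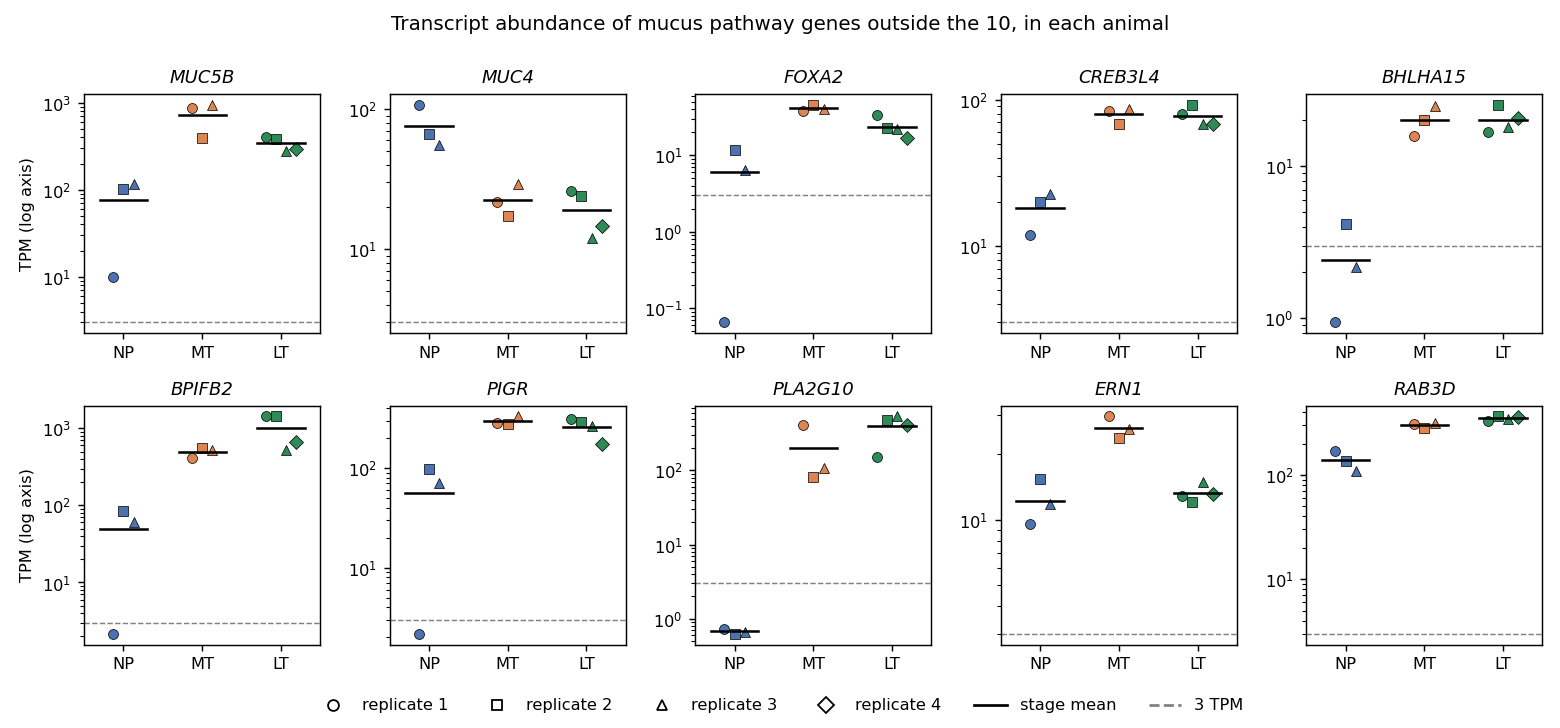
Transcript abundance of 10 mucus pathway genes outside the 10 in each animal, in TPM on a logarithmic axis that differs between panels. Symbols are animals by replicate number, black bars are stage means and the dashed line is 3 TPM. PLA2G10 goes from 0.629 to 0.737 TPM in NP to 80.3 to 414 TPM in MT, and ERN1 is highest in MT (23.6 to 29.7 TPM).

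Of 8 mucins tested, 1 rose from NP to MT and 1 fell. Each is 12.5% of the list, against 6.27% of all tested genes called higher and 12.2% called lower. From MT to LT, 12.5% of the list was called lower, against 22.7% of all tested genes. *MUC5B* was at 9.86, 102 and 115 TPM in NP and 861, 391 and 936 TPM in MT, and rose by 3.75 ± 0.76 (limma adjusted P = 0.0098), a change that was 2.64 without NP replicate 1 and 4.35 without NP replicate 3. The membrane mucin *MUC4* fell by 1.69 ± 0.33 (adjusted P = 0.00776), from 55.6 to 107 TPM in NP to 17.1 to 29.1 TPM in MT. From 729.6 TPM in MT to 340 TPM in LT, *MUC5B* had a change of -1.02 ± 0.71 that did not pass (adjusted P = 0.30). It passed on the square-root scale (0.0453), with only MT and LT in the fit (0.034) and without NP replicate 1 (0.0205). Between MT and LT the 1 mucin called was *EMCN*, which fell (-0.84 ± 0.28, adjusted P = 0.0483), the endothelial sialomucin, whose call was lost in 12 of the 18 alternative settings. The mucin of highest mean, *CD164*, a sialomucin of many cell types, was between 520 and 596 TPM in all animals.

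The O-glycosylation list, enzymes that attach and extend the sugar chains, had 9 genes higher and 3 lower of 25 from NP to MT, and 2 higher and 2 lower from MT to LT. *GALNT6*, which adds the first sugar, was at 18.7 to 21.7 TPM in NP, 48.8 to 84.7 in MT and 86.7 to 115 in LT. It rose by 1.63 ± 0.18 (limma adjusted P = 0.000816) and then by 0.64 ± 0.17 (0.0201), the latter lost without MT replicate 1, MT replicate 2, LT replicate 2 or LT replicate 3 (adjusted P from 0.0505 to 0.0745). *CHST4*, a sulfotransferase, rose from NP to MT by 2.24 ± 0.27 (0.00107) and *GALNT12* by 1.91 ± 0.36 (0.00729). The branching enzyme *GCNT3* fell by 2.65 ± 0.49 (0.00662) and was at 195 TPM in NP replicate 1, against 57.5 and 49.2 in the other two. Without that animal its change was -2.03.

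Of 22 transcription factors of secretory cells other than *SPDEF*, 7 rose and 1 fell from NP to MT, and 1 rose and 3 fell from MT to LT. From NP to MT these are 31.8% and 4.55% of the list, against 6.27% and 12.2% of all tested genes. From MT to LT they are 4.55% and 13.6%, both below the shares of all tested genes. *BHLHA15* (MIST1), a factor that expands the secretory apparatus, went from 0.938, 4.16 and 2.19 TPM in NP to 15.7, 19.9 and 24.8 TPM in MT, a rise of 2.72 ± 0.32 (limma adjusted P = 0.000958). *CREB3L4*, a factor bound to the endoplasmic reticulum, rose by 2.11 ± 0.21 (0.000466). *FOXA2* rose by 3.18 ± 0.72 (0.0147), or by 2.12 without NP replicate 1 and 3.90 without NP replicate 2. The rise did not pass without MT replicate 3 (0.0514) or with only NP and MT in the fit (0.0607). *XBP1*, the target of the IRE1 enzymes and the most abundant factor of the list, rose by 1.14 ± 0.25 (0.0134), which did not pass without MT replicate 3 (0.0569).

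*ELF3*, an epithelial ETS factor, fell from NP to MT by 1.11 ± 0.21 (limma adjusted P = 0.00792). From MT to LT, *CREB3L2* fell by 0.71 ± 0.10 (0.00282), from 62.7 to 68.0 TPM to 33.7 to 42.5 TPM. It passed in all 18 alternative settings. *SPDEF* itself had no change that passed between these stages.

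Proteins released together with mucin, 13 of them tested, had 4 higher and 1 lower from NP to MT. These are 30.8% and 7.69% of the list, against 6.27% and 12.2% of all tested genes. *PLA2G10*, a secreted phospholipase, was at 0.737, 0.629 and 0.672 TPM in NP and 414, 80.3 and 108 TPM in MT. In LT it was at 152, 481, 536 and 411 TPM. Its change from NP to MT was 6.53 ± 0.60, and 5.81 without MT replicate 1. The paper had already named this rise, so no P-value is given for it. *BPIFB2*, a relative of *BPIFB1*, rose by 4.28 ± 1.02 (limma adjusted P = 0.0182), lost without MT replicate 2 (0.053), without MT replicate 3 (0.0629) or with only NP and MT in the fit (0.065). The change was 2.77 without NP replicate 1 and 5.15 without NP replicate 2. Unlike *BPIFB1* it was at a like level in all MT animals, 413, 561 and 523 TPM. *SLPI*, a protease inhibitor, fell from 140 to 458 TPM in NP to 8.80 to 31.1 TPM in MT (-3.73 ± 0.58, 0.00297) and rose to 84.7 to 281 TPM in LT (3.16 ± 0.55, 0.00419).

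In LT, *LTF*, the antimicrobial lactoferrin, was at 6885, 6680, 1804 and 1535 TPM, and *BPIFB2* at 1424, 1428, 527 and 658 TPM. Replicates 1 and 2 were thus above replicates 3 and 4 in both genes, as they were for *KIAA1324*, *VSIG2*, *SPDEF* and *CLCA1*. *SCGB3A1* divided the other way, with replicates 1 and 2 below replicates 3 and 4, and in the other 5 of the 10 genes the pairs overlapped.

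Of 18 genes of ion and fluid transport, 2 rose and 2 fell from NP to MT, and 1 rose and 3 fell from MT to LT (5.56% and 16.7%), shares below those of all tested genes in that comparison. The shares from NP to MT were 11.1% each way, near those of all tested genes for the genes that fell. The epithelial sodium channel subunit *SCNN1G* rose from NP to MT by 1.39 ± 0.28 (limma adjusted P = 0.0098), and the carbonic anhydrase *CA2* fell by 2.67 ± 0.37 (0.00184). Toward late pregnancy the chloride channel *ANO1* fell by 1.32 ± 0.26 (0.00638), from 58.5 to 75.2 TPM to 15.3 to 34.9 TPM. *KCNMA1*, the pore of the BK channel that *LRRC26* joins, fell by 0.86 ± 0.13 (0.00321), from 151 to 218 TPM to 98.2 to 110 TPM, while *LRRC26* was higher in every LT animal than in every MT animal without passing the test. Smooth muscle expresses *KCNMA1* as well.

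The list of secretory granules and mucin folding was the longest. Of its 39 tested genes, 11 rose from NP to MT (28.2%, against 6.27% of all tested genes). From MT to LT, 12 rose (30.8%, against 6.73%) and 3 fell (7.69%, against 22.7%). From NP to MT the granule GTPase *RAB3D* rose by 1.13 ± 0.14 (adjusted P = 0.00114), from 110 to 172 TPM to 284 to 312 TPM. Toward late pregnancy the chaperones *SDF2L1*, *CRELD2* and *DNAJB11* rose by 0.89 ± 0.20 (0.0101), 0.84 ± 0.19 (0.0102) and 0.70 ± 0.11 (0.00337), over the same interval as *AGR2*.

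*ERN1* (IRE1 alpha), the broadly expressed relative of *ERN2*, was at 9.52, 15.3 and 11.8 TPM in NP, 29.7, 23.6 and 25.9 TPM in MT, and 12.9, 12.1, 14.9 and 13.2 TPM in LT. It rose from NP to MT by 1.07 ± 0.16 (limma adjusted P = 0.00253) and fell from MT to LT by 0.94 ± 0.15 (0.00346), and both calls held in all 18 alternative settings. For *ERN2* the LT values, 24.5 to 38.4 TPM, overlapped with those of MT.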

How the data were processed

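Libraries were strand-specific and poly-A selected and were sequenced as single reads of 75 bases. The authors called bases with CASAVA 1.8.2, aligned reads to the cavPor3.69 genome with TopHat2 and made read counts per gene with HTSeq 0.5.4p1. They derived the deposited TPM values from the counts, with gene lengths that the sources used here do not give. Both were used as deposited, and every TPM column sums to 1000000.

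Tests were two-sided, with limma 3.58.1 (trend) in R 4.3.3 on log2(TPM + 1), the stage as the only term and Benjamini-Hochberg adjustment over the 12645 genes with a stage mean of at least 3 TPM. The threshold was 0.05. The replicates are separate animals. Alternatives were square-root TPM (the scale the authors tested on), a pseudocount of 0.1, no filter, median-ratio scaling, edgeR 4.0.16 and DESeq2 1.42.0 on the counts, only the stages compared, the replicate block and each animal left out, 18 settings in all. The fit was tested on simulated data.

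The 10 genes and all lists were chosen with earlier results of these data known. Genes named are the 10, the gene of highest mean and up to 3 of greatest rise and fall per comparison in each list (from these the text takes examples), and the 10 most like the mean deviation, of which 1 is not reported here. MUC2, TFF3, MUC5AC, ATOH1 and RETNLB were named to check the cell type. Genes with near-identical copies may have shared reads. No sequence of the genes was printed, since no guinea pig sequence of this build was used here.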

Additional observations from a re-analysis of the deposited data

How the results depend on the processing

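Each stage holds 3 or 4 animals, and the 6 genes below 3 TPM in NP rest there on few reads (2 to 42 for *SPDEF*). Of the 10 genes, 4 were called from MT to LT, 2 with edgeR and 2 to 6 with single animals left out. The count of pathway genes called higher from NP to MT was 34, and 58 with DESeq2, 20 when only the NP and MT animals were fitted and 20 to 40 with single animals left out. The count called lower there was 8, and 6 to 12 with single animals left out. From MT to LT, the count called higher was 18, and 28 with median-ratio scaling, 36 with DESeq2 and 6 to 27 with single animals left out, and the count called lower was 12, and 6 to 20. From NP to LT, the count higher was 56, with 50 to 58 when single animals were left out, 71 with median-ratio scaling, 70 with edgeR and 72 with DESeq2, and the count lower was 16, with 13 to 22, 11, 13 and 14. The cause of these moves was not tested. The share of higher calls among the pathway calls from MT to LT was 60.0%, and 77.8% with median-ratio scaling, 76.5% with edgeR and 80.0% with DESeq2. All tested genes moved the same way. Those called higher went from 6.73% to 14.6%, 13.4% and 17.4% in these 3 settings, and those called lower from 22.7% to 14.8%, 15.6% and 18.8%. The median r of the 45 pairs was 0.50, with 0.47 to 0.64 when single animals were left out, highest without MT replicate 3. On square-root TPM it was 0.41, with a lowest pair of -0.94. Within single stages, over 3 or 4 animals, it was 0.84 in NP, 0.73 in MT and 0.18 in LT. No called direction of the 10 genes (MT to LT) or of the pathway genes turned in any of the 18 alternative settings.

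Samples with the same replicate number did not deviate together (r from -0.287 to 0.254), so the numbers do not pair the animals. With the replicate number as a block, 2 of the 10 genes were called from MT to LT, *AGR2* and *KIAA1324*. *BPIFB1* (adjusted P = 0.0604), *VSIG2* (0.0892) and, of the pathway genes with a test printed above, *GALNT6* (0.0576) and *EMCN* (0.15) lost their calls there, and the counts of pathway genes were 8 higher and 6 lower.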
